A study of Mus musculus with 4 samples.

Results

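The genes described here are the protein-coding genes that build and polarize epithelial cell junctions. They were chosen by name, as every gene whose symbol begins with Cldn and a list of 21 further genes, and 49 of the 37620 gene identifiers in the count tables met this rule. They were grouped by role into tight junction (35 genes), adherens junction (5 genes), desmosome (5 genes) and polarity (4 genes). RNA-seq was available for 4 samples with 1 library each. In 3 of them, R1 mouse embryonic stem cells (mESCs) had been cultured for 2 days in serum-containing, feeder-free medium with both 2i inhibitors, CHIR99021 (3 µM, against GSK3) and PD0325901 (1 µM, against MEK), and without LIF. The first sample received nothing further (2i−L, labelled 2i), the second also a JAK inhibitor (2iJ, 2 µM), and the third the JAK inhibitor, BMP4 (10 ng/ml) and an inhibitor of the TGF-β receptor ALK5 (2iJ+B−A, 10 µM). The last sample was the F4 trophoblast stem cell line (TSC), labelled day 2 and grown by a separate trophoblast stem cell protocol, so line, lineage and medium cannot be told apart in any comparison with it. The 3 mESC samples are 1 culture each of 1 line.

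Epithelial cells are held together by tight junctions, which seal the space between neighbours through claudins and MARVEL-domain proteins, by adherens junctions, in which cadherins are tied to actin through catenins, and by desmosomes, in which desmosomal cadherins are tied to keratin filaments. The Par and Crumbs proteins place these junctions between the apical and the lateral membrane. The trophectoderm, the outer layer of the blastocyst and the source of trophoblast stem cells, is the first polarized epithelium of the mouse embryo, whereas embryonic stem cells hold on to each other largely through E-cadherin.

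Because each condition had 1 library, no difference has a replicate check and no p-value is given. Levels are CPM (read counts scaled to a common library size), and differences are log2 ratios of CPM after adding 0.5 CPM to both. A gene was called higher or lower at a log2 ratio of 1 or more in size. Intervals are 95% Clopper–Pearson intervals and cover counting error only, not variation between cultures. In bulk RNA, fewer cells of a type and less RNA per cell cannot be told apart. The comparisons with 2iJ share that library, as do those with TSC or 2iJ+B−A.

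Libraries held 33913984 to 36964392 counts on genes, and 3 counts corresponded to 0.0799 to 0.0902 CPM. The labels were checked against marker genes. The 6 pluripotency markers summed to 4423, 3513, 2555 and 782 CPM in 2i−L, 2iJ, 2iJ+B−A and TSC, and Pou5f1 was at 1.34 CPM in TSC. The 7 trophoblast stem markers summed to 174, 170, 295 and 1363 CPM in the same order. Of these 7, 4 were called higher and 1 lower in 2iJ+B−A against 2iJ, and all 7 were called higher in TSC. Over all genes at 1 CPM in at least 1 sample, 5.81% were called higher and 3.17% lower in 2iJ+B−A, and 19.4% higher in TSC. The 5 primitive endoderm markers, which mark another epithelium, summed to 10.4, 19.2, 46.4 and 53.7 CPM, with 4 of 5 called higher in 2iJ+B−A against 2iJ. The 4 mesoderm markers summed to 4.84, 4.51, 2.90 and 25.6 CPM. The 8 fibroblast markers summed to 48.0, 41.0, 30.4 and 7.69 CPM, and Col1a2 and Lum had no count in TSC. The part of these other cell types in the results that follow was not tested.

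Junction genes were already present in mESCs. A level of 1 CPM in at least 1 sample was reached by 33 of the 49 genes, and 27 of them reached it in all 4 samples. All 21 listed genes outside the Cldn names were among these 27. Of the 28 Cldn names, 12 reached 1 CPM in at least 1 sample and 6 in all 4. Of the genes past this filter, 5 passed it in a single sample. These were Cldn1 in 2iJ+B−A and Cldn8, Cldn9, Cldn23 and Cldn26 in TSC, and a gene that passes in this way has to differ between samples. Cldn5 passed in 2i−L and 2iJ. The 16 genes that did not pass were all Cldn names, with 0 to 16 counts per library, and Cldn17, Cldn22 and Cldn24 had no count anywhere. Cldn22 and Cldn24 match each other at 97.2% identity over 56.8% and 85.2% of their transcripts, and read pairs with several matches are not counted, so their 0 is uncertain. The current RefSeq table lists Cldn25, Cldn26 and Cldn27 as older names of Cldnd1, Tmem114 and Tmem235, and Cldn21 of a pseudogene, so these 4 are claudins by symbol only. Cldnd2, a claudin domain gene, also met the rule by its symbol.

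Per length of exon, the order of levels was headed in each sample by Cdh1 (E-cadherin), at 151, 152, 221 and 345 CPM per kb in 2i−L, 2iJ, 2iJ+B−A and TSC. Ctnna1, the α-catenin that ties cadherins to actin, was second in the 3 mESC samples at 138, 126 and 156 CPM per kb, and behind both leading claudins in TSC at 214 CPM per kb. In TSC, Cldn4 and Cldn6 moved into the second and the third place. Without replicates, neighbours in this order cannot be separated beyond counting error.

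**Figure D1:**
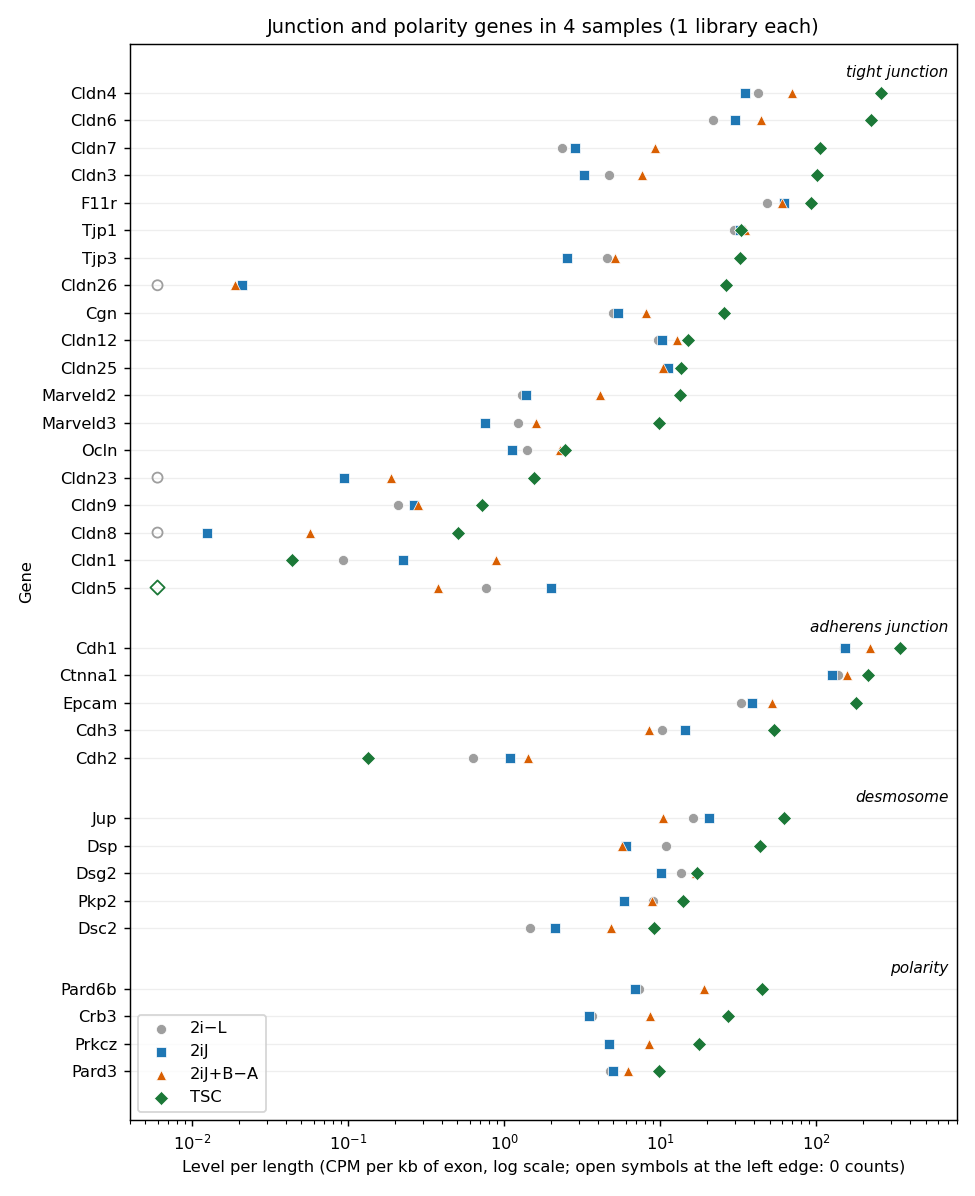
Level per exon length (CPM per kb, log scale) of the 33 genes past the filter, 1 symbol per library and gene, grouped by junction type and sorted by the TSC level. The TSC symbol lies at the right of most rows, with Cldn1, Cldn5 and Cdh2 at the left as exceptions, and the 4 symbols of Tjp1 lie close together.

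The question of the first comparison is what BMP4 and the ALK5 inhibitor changed in cells already in 2iJ. After 2 days, 8 of the 33 genes were called higher in 2iJ+B−A than in 2iJ and 1 was called lower, against 5.81% and 3.17% of the 14263 genes past the same filter. Of the 27 genes at 1 CPM in all samples, 7 were called higher and 0 lower, against 4.02% and 1.99% of the 11385 genes with this property. The 8 genes were the claudins Cldn1, Cldn3, Cldn4 and Cldn7, the tricellular junction gene Marveld2, the desmosomal cadherin Dsc2 and the polarity genes Crb3 and Pard6b. The gene called lower was Cldn5. Of the 33 genes, 26 lay above 0, with a median log2 ratio of 0.54, and the median over all genes past the filter was -0.0023. The threshold was close for several genes, with Cldn4 just inside at 1.00 and Tjp3 (0.97), Marveld3 (0.96), Ocln (0.95) and Jup (-0.97) just outside.

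The second comparison sets trophoblast stem cells beside 2iJ. In TSC, 22 of the 33 genes were called higher and 2 lower than in 2iJ, against 19.4% and 17.6% of all genes past the filter. Of the 27 genes at 1 CPM in all samples, 19 were called higher and 1 lower, against 16.7% and 11.6%. The median log2 ratio of the 33 genes was 1.88, beside 0.0027 over all genes. The 2 genes called lower were Cdh2 and Cldn5. Just outside the threshold were Pard3 (0.98) and Cldn1 (-0.93), and Ocln was just inside (1.06). Compared directly with 2iJ+B−A, TSC had 18 genes called higher and 3 lower (Cdh2, Cldn1 and Cldn5), against 16.4% and 16.2% of all genes. Among the 27 genes at 1 CPM in all samples, 15 were called higher and 1 lower in this comparison, against 13.7% and 10.0%. Cldn1 and Cldn5 are not among these 27, nor are Cldn8, Cldn23 and Cldn26, which were called higher.

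The third comparison asks what the JAK inhibitor changed in 2i without LIF. Here 1 of the 33 genes, Cldn5, was called higher in 2iJ than in 2i−L and 0 were called lower, against 1.23% and 0.918% of all genes. The nearest genes on the lower side were Dsp (-0.85) and Tjp3 (-0.80). When 2iJ+B−A and TSC were instead set against 2i−L, 8 genes were called higher and 0 lower in 2iJ+B−A, against 7.93% and 4.52% of all genes, and 21 higher and 2 lower in TSC, against 19.4% and 17.4%. The 8 genes were not the same as against 2iJ, since Cldn3 (log2 ratio 0.68) and Cldn4 (0.73) were no longer called and Cldn6 (1.00) and Cdh2 (1.10) were called in their place. Among the 27 genes at 1 CPM in all samples, 7 were called higher and 0 lower in 2iJ+B−A against 2i−L, beside 5.44% and 3.10%. In TSC against 2i−L these counts were 18 and 1, beside 16.6% and 11.7%.

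**Figure D2:**
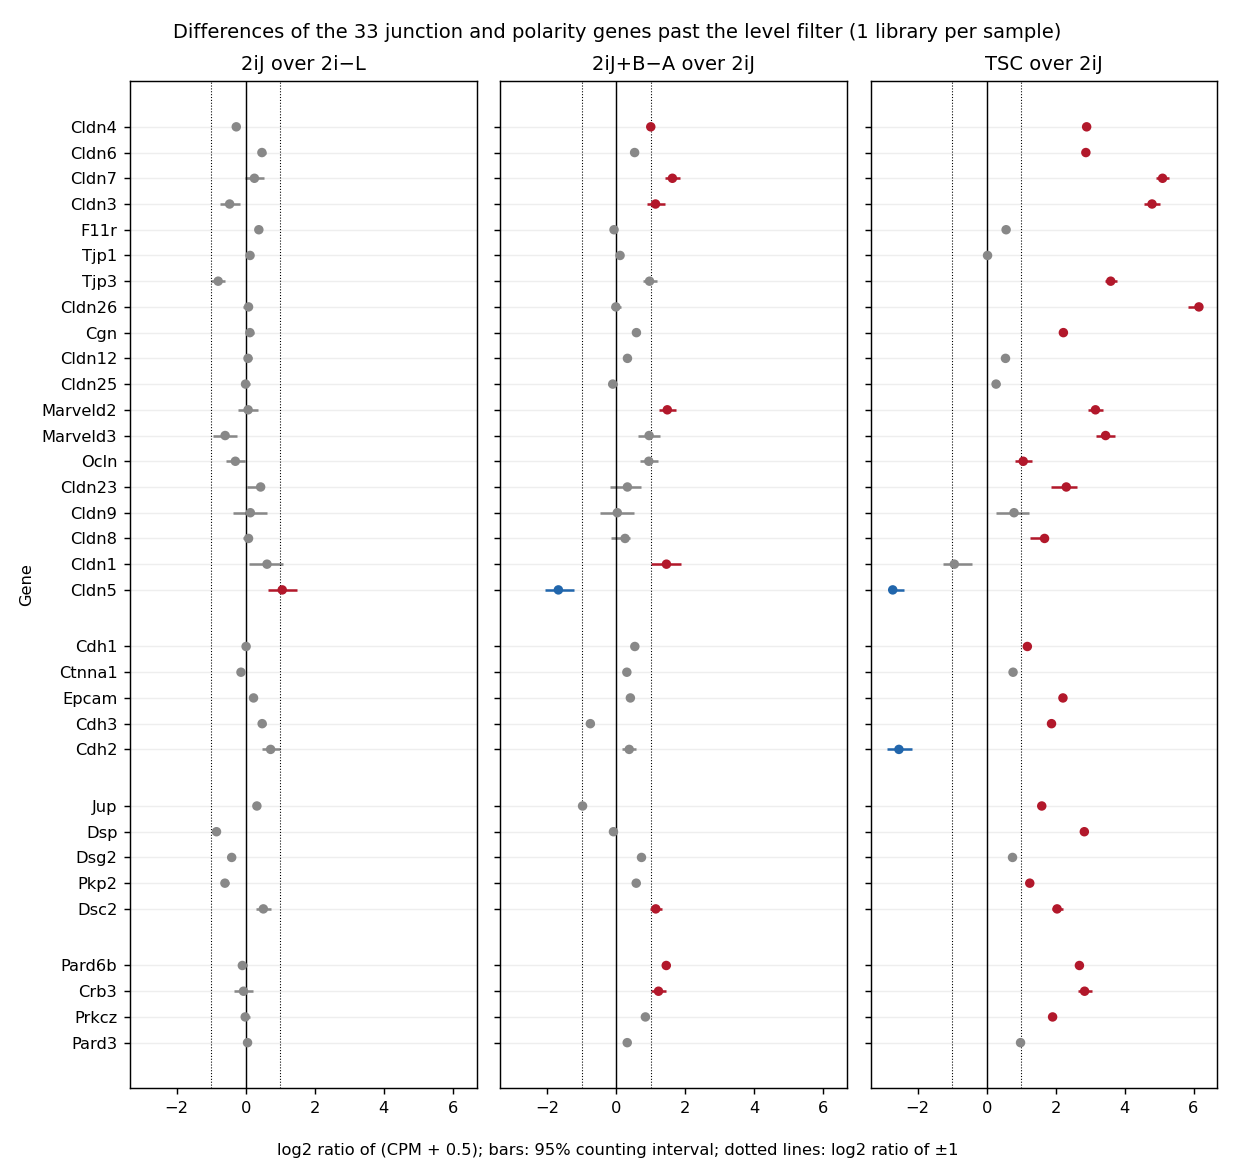
log2 ratio of (CPM + 0.5) of the 33 genes for 2iJ over 2i−L, 2iJ+B−A over 2iJ and TSC over 2iJ, with 95% counting intervals as bars, dotted lines at 1 and -1, and called genes in red (higher) or blue (lower). Red points number 1, 8 and 22 in the 3 panels, and blue points 0, 1 and 2.

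**Figure D3:**
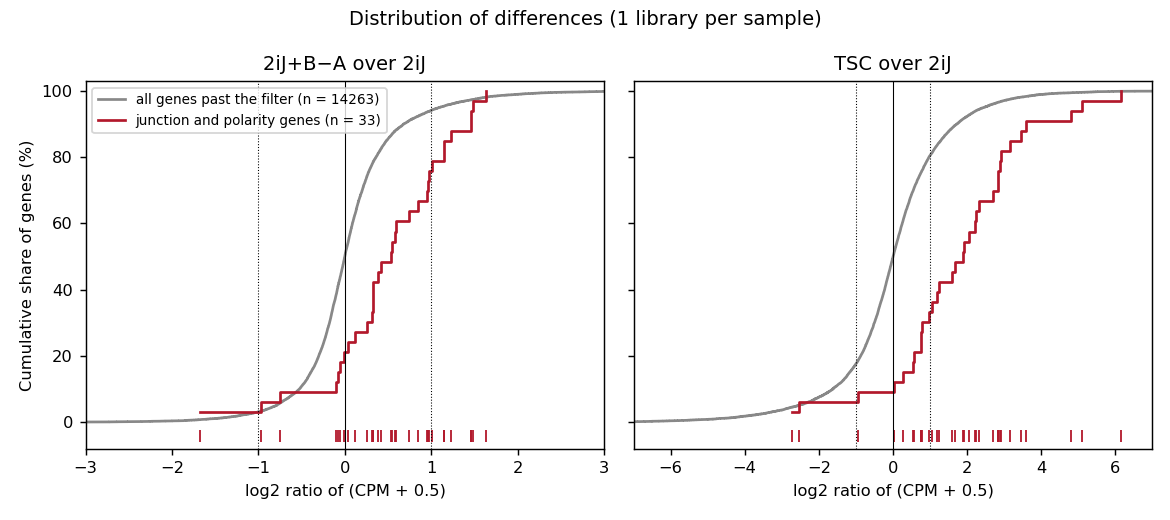
Cumulative share (%) of genes by log2 ratio for 2iJ+B−A over 2iJ and TSC over 2iJ, for the 33 junction and polarity genes (red, with a tick per gene) and for all 14263 genes past the filter (grey). The red curve lies to the right of the grey one over most of its range, with medians of 0.54 and 1.88 against -0.0023 and 0.0027.

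Claudins are 4-pass membrane proteins that form the strands of tight junctions. Summed per length over the 23 genes that RefSeq also names Cldn with a number, which leaves out Cldnd2, their level was 81.8, 84.3, 146 and 710 CPM per kb in 2i−L, 2iJ, 2iJ+B−A and TSC, which is 1.73-fold higher in 2iJ+B−A than in 2iJ and 8.43-fold higher in TSC. The same pair led in every sample. Cldn4 made up 51.3%, 41.1%, 47.9% and 36.7% of this sum, and Cldn6 made up 26.6%, 35.9%, 30.2% and 31.6%. The third place passed from Cldn12 in the mESC samples, with 11.9%, 12.1% and 8.78%, to Cldn7 in TSC with 14.9%. Cldn3 followed in TSC with 14.3%, and Cldn12 was at 2.10% there.

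**Figure D4:**
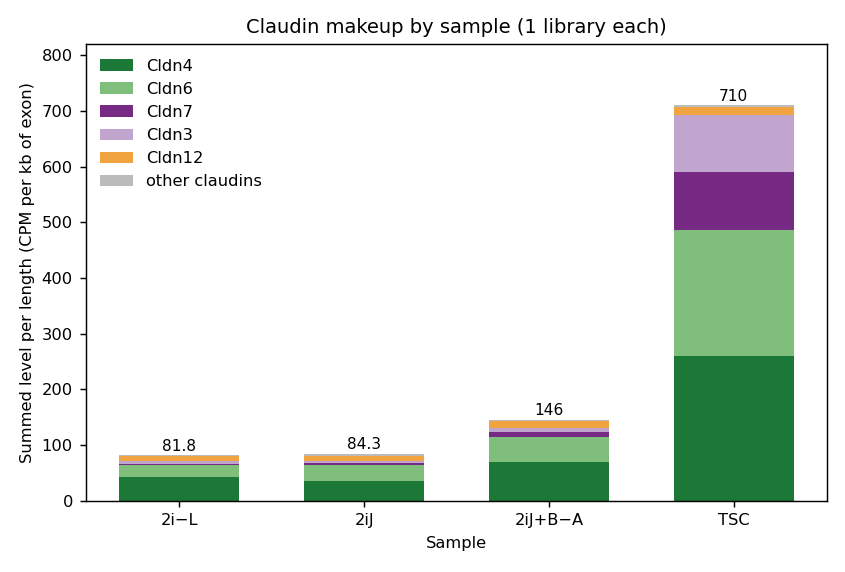
Summed level per exon length (CPM per kb) of the 23 claudin genes in each library, with bars starting at 0 and divided by gene. The bars reach 81.8, 84.3, 146 and 710, Cldn4 and Cldn6 are the largest parts of each, and Cldn7 and Cldn3 are wide bands in TSC.

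Cldn4 was at 75.9, 62.7, 126 and 472 CPM in 2i−L, 2iJ, 2iJ+B−A and TSC, 2.01-fold higher in 2iJ+B−A than in 2iJ (interval 1.91 to 2.12) and 7.52-fold higher in TSC (7.19 to 7.87). Its log2 ratio to 2iJ was 0.996 with DESeq2 size factors and 0.998 with a pseudocount of 1 CPM, so that its call in 2iJ+B−A was lost under both, and against 2i−L it was 1.66-fold higher and not called. Cldn6, a claudin of early embryonic epithelia, was at 32.8, 45.6, 66.3 and 338 CPM, with log2 ratios of 0.54 and 2.88. Its level in 2iJ+B−A was not called against 2iJ and was called against 2i−L, at 2.02-fold.

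Cldn7 had the largest log2 ratio of the 33 genes in 2iJ+B−A against 2iJ. It was at 4.54, 5.50, 18.1 and 206 CPM, 3.29-fold higher in 2iJ+B−A (2.80 to 3.88) and 37.4-fold higher in TSC (32.4 to 43.4). Cldn3 was at 5.86, 4.11, 9.66 and 128 CPM, 2.35-fold higher in 2iJ+B−A (1.93 to 2.88) and 31.1-fold higher in TSC (26.3 to 37.0). Against 2i−L, the level of Cldn3 in 2iJ+B−A was 1.65-fold and not called, 2iJ being the lowest library. Both were minor claudins in the mESC samples. Of the Cldn7 transcript, 67.2% matched elsewhere in the genome, with 76.2% identity in the best match. Cldn3 and Cldn4 are neighbours on chromosome 5, on opposite strands and 39279 bases apart (NCBIM37), with no protein-coding gene between them.

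Cldn1, a claudin of skin and other barriers, went with neither group. It had 10, 25, 108 and 5 counts in 2i−L, 2iJ, 2iJ+B−A and TSC, or 0.301, 0.728, 2.87 and 0.142 CPM. Its level in 2iJ+B−A was 3.95-fold that in 2iJ (2.54 to 6.37) and 20.2-fold that in TSC, and only 2iJ+B−A lay above 1 CPM. Cldn5, best known from endothelium, had 36, 96, 20 and 0 counts. Its level in 2iJ was 2.58-fold that in 2i−L (1.74 to 3.90) and 5.25-fold that in 2iJ+B−A, and TSC was at least 32.7-fold lower than 2iJ when 3 counts are taken as the floor of the TSC library. Its calls rest on 96 counts or fewer.

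The other Cldn names past the filter were flat or had at most 15 counts in each mESC library. Cldn12 was at 39.5, 41.4, 52.1 and 60.8 CPM, and Cldn25 (now Cldnd1) at 28.8, 28.7, 26.8 and 34.9 CPM, and neither was called in any comparison with 2iJ. Cldn26 (now Tmem114) had 0, 1, 1 and 1307 counts, the TSC level being 37.2 CPM. This is 1278-fold the 2iJ level with an interval from 229 to 50534, which is wide because 2iJ had 1 count, and at least 413-fold the 2i−L level against the floor of 3 counts. Cldn23 had 0, 6, 13 and 100 counts, Cldn8 had 0, 1, 5 and 42, and Cldn9 had 10, 13, 15 and 36. The gene of Cldn9 ends 138 bases from that of Cldn6 on the opposite strand (chromosome 17, NCBIM37), and the 2 genes differed in level by a wide margin in every sample.

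The MARVEL-domain proteins, which span the membrane beside the claudins, had low levels in the mESC samples. Marveld2 (tricellulin), which seals the points where 3 cells meet, was at 4.39, 4.63, 13.8 and 45.3 CPM, 2.99-fold higher in 2iJ+B−A than in 2iJ (2.50 to 3.59) and 9.78-fold higher in TSC (8.30 to 11.6). Ocln (occludin) was at 5.92, 4.72, 9.56 and 10.4 CPM, so that 2iJ+B−A was within 1.09-fold of TSC (0.938 to 1.26). Marveld3 was at 4.00, 2.48, 5.27 and 32.0 CPM, with a TSC level 12.9-fold that in 2iJ. Of the 3 genes, Ocln alone had a 2iJ+B−A level whose counting interval reached the TSC level. Ocln and Marveld2 are neighbours on chromosome 13, 43238 bases apart on the same strand (NCBIM37).

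Among the other membrane and plaque proteins of tight junctions, the scaffolds differed from each other. Tjp1, the main zonula occludens scaffold, was at 218, 238, 257 and 242 CPM, and its TSC level was 1.02-fold that in 2iJ (0.989 to 1.05). Tjp3, a related scaffold, was at 13.7, 7.69, 15.5 and 98.7 CPM, 2.02-fold higher in 2iJ+B−A than in 2iJ (1.74 to 2.34) and 12.8-fold higher in TSC (11.3 to 14.6). The 2iJ library was the lowest of the 4 for Tjp3, and the level in 2iJ+B−A was close to that in 2i−L, with a log2 ratio between them of 0.17. Cgn (cingulin), which binds these scaffolds on the cytoplasmic side, was at 32.3, 35.1, 53.1 and 166 CPM. F11r (JAM-A), an adhesion molecule of the immunoglobulin family, was at 127, 166, 159 and 246 CPM and was called in neither comparison with 2iJ.

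At the adherens junction, no gene was called in 2iJ+B−A against 2iJ, and 3 of 5 were called higher and 1 lower in TSC. Over all genes past the filter, 5.81% were called higher and 3.17% lower in 2iJ+B−A, and 19.4% and 17.6% in TSC. Cdh1 was at 689, 695, 1011 and 1577 CPM, 1.46-fold higher in 2iJ+B−A than in 2iJ (1.43 to 1.48) and 2.27-fold higher in TSC (2.24 to 2.30). Epcam, an adhesion molecule of epithelia and of pluripotent cells, was at 67.3, 78.8, 105 and 367 CPM, 4.66-fold higher in TSC than in 2iJ. Ctnna1 was at 511, 465, 576 and 792 CPM, with log2 ratios to 2iJ of 0.31 and 0.77. These 3 genes had the order 2iJ, 2iJ+B−A, TSC.

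The other cadherins broke this order. Cdh2 (N-cadherin), the cadherin of mesenchymal and neural cells, was at 5.08, 8.71, 11.5 and 1.08 CPM, highest in 2iJ+B−A and 8.04-fold lower in TSC than in 2iJ. Of its transcript, 34.0% matched elsewhere, with 99.4% identity in the best match. Cdh3 (P-cadherin), which is abundant in placenta, was at 41.1, 57.4, 34.0 and 213 CPM, 1.69-fold lower in 2iJ+B−A than in 2iJ and 3.71-fold higher in TSC (3.53 to 3.90). Summed per length over the 3 cadherins, Cdh1 made up 93.2%, 90.8%, 95.7% and 86.6%, and Cdh3 made up 6.37%, 8.59%, 3.68% and 13.4%. The share of Cdh3 was thus lowest in 2iJ+B−A and highest in TSC.

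In desmosomes, 1 of 5 genes was called in 2iJ+B−A and 4 of 5 in TSC, all higher. Of all genes past the filter, 5.81% and 19.4% were called higher in these comparisons with 2iJ. Dsc2 (desmocollin), a desmosomal cadherin, was at 7.70, 11.2, 25.4 and 47.7 CPM, 2.27-fold higher in 2iJ+B−A than in 2iJ (2.02 to 2.56) and 4.26-fold higher in TSC. Dsg2 (desmoglein), its partner, was at 112, 84.0, 140.1 and 142 CPM, and its level in 2iJ+B−A was within 1.01-fold of that in TSC (0.974 to 1.05 for the TSC level over the other). Of the pair, Dsc2 alone was called higher in 2iJ+B−A than in 2iJ, and the log2 ratio of Dsg2 was 0.73.

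The plaque proteins that tie them to keratin differed among themselves. Jup (plakoglobin), which serves both desmosomes and adherens junctions, was at 105, 131, 66.4 and 398 CPM. It was 1.97-fold lower in 2iJ+B−A than in 2iJ, lower than in either other mESC sample, and 5.99-fold higher in TSC than in 2iJ+B−A (5.74 to 6.25). Dsp (desmoplakin) was at 105, 57.9, 54.9 and 416 CPM, so that its lower level was shared by 2iJ and 2iJ+B−A and only the TSC library lay above 2i−L. Pkp2 (plakophilin) was at 47.8, 31.3, 47.1 and 75.2 CPM, with 2iJ+B−A at the level of 2i−L and a log2 ratio to 2iJ of 0.58. A part of the Jup transcript, 33.5%, matched elsewhere, with 87.2% identity in the best match.

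Polarity genes were all higher in 2iJ+B−A than in 2iJ, 2 of 4 past the threshold, and had a median log2 ratio of 1.04. Of all genes past the filter, 5.81% were called higher in this comparison. Pard6b, an adaptor of the Par complex, was at 24.9, 23.3, 64.5 and 153 CPM, 2.77-fold higher in 2iJ+B−A than in 2iJ (2.56 to 3.01) and 6.58-fold higher in TSC (6.10 to 7.09). Crb3, the Crumbs protein of the apical membrane, was at 5.74, 5.47, 13.5 and 42.3 CPM, 2.47-fold higher in 2iJ+B−A (2.08 to 2.93) and 7.73-fold higher in TSC (6.64 to 9.05). Both were nearly level between 2i−L and 2iJ.

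Prkcz, the atypical protein kinase C of the Par complex, was at 29.7, 29.4, 53.4 and 112 CPM, 1.81-fold higher in 2iJ+B−A than in 2iJ (1.68 to 1.96). Of its transcript, 44.6% matched elsewhere, with 96.7% identity in the best match, a site on chromosome 7, so that its counts are uncertain. Pard3, the scaffold of the complex, was at 68.9, 71.6, 89.5 and 142 CPM, with log2 ratios to 2iJ of 0.32 and 0.98. The order 2iJ, 2iJ+B−A, TSC held for all 4 genes.

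The promoters of these genes were examined for the E-box CAGGTG, read on either strand, which is the letter sequence bound by the Snail and Zeb repressors in the well-studied Cdh1 promoter. RefSeq promoter windows (GRCm38.p6) were found for 20 of the 33 genes past the filter, and not for Cdh1, Cdh2, Cdh3, Cldn8, Cldn9, Cldn23, Cldn25, Cldn26, Ctnna1, Dsc2, Dsg2, Marveld3 and Pkp2. In the 250 bases before a start, the E-box was present for 11 of these 20 genes (55.0%), and for 19.4% of the 27025 genes with such a window. By window, it was in 14 of 30 (46.7%), beside 17.2% of all 32851. With the 50 bases after the start added, the numbers were 14 of 20 genes (70.0%) and 22.6%. Of the 13 genes below the filter with a window, 1 had it. The shares over all genes and windows include genes below the filter, whereas the 20 genes all passed it. The windows of genes past the filter were richer in G and C, with a median of 60.0% against 52.4% over all windows and 51.8% for the genes below the filter. This is a description of letters with no test, the motif was chosen with the levels known, and binding was not measured. The string AACCNGGTT, searched for the Grhl factors, was in 0 of 20 genes (0.278% of all). It requires a base between AACC and GGTT, so Grhl sites without that base were not searched and the 0 does not cover them. The AP-2 motif GCCNNNGGC was in 7 of 20 (15.4% of all), and GGCGCC, a motif of BMP-responsive elements, in 2 of 20 (10.8% of all).

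The 250 bases before the start are printed for 6 genes with the E-box and for Tjp1. Cldn4 and Cldn6 are the leading claudins, Cldn7, Crb3 and Pard6b were called higher in 2iJ+B−A, Epcam was called higher in TSC, and Tjp1 is shown as a gene that had nearly the same level in all 4 samples and has no E-box there. They run from 5′ to 3′ along the gene's strand (RefSeq, GRCm38.p6), and capitals mark the E-box or its complement CACCTG. Cldn7 and Crb3 have 2 annotated starts each, and 1 is shown. The window of the other Cldn7 start has 0 matches. That of the other Crb3 start overlaps the one shown and holds the same 3 matches, so that they count in both windows.
Cldn4, chr5:134946935-134947184, strand minus: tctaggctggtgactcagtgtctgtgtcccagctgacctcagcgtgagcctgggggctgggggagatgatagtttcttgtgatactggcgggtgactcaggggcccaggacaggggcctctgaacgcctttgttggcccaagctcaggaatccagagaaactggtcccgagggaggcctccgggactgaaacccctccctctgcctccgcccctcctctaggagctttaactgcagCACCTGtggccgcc
Cldn6, chr17:23679115-23679364, strand plus: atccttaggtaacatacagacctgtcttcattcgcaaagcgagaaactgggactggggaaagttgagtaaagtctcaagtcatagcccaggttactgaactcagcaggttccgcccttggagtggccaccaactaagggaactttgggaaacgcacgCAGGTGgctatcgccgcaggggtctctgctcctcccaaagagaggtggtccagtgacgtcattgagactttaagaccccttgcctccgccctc
Cldn7, chr11:69965171-69965420, strand plus: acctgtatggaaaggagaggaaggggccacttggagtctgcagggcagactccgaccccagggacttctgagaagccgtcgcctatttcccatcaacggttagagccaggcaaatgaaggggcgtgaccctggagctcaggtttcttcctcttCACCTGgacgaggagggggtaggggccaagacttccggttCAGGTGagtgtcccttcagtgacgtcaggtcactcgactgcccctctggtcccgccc
Crb3, chr17:57061951-57062200, strand plus: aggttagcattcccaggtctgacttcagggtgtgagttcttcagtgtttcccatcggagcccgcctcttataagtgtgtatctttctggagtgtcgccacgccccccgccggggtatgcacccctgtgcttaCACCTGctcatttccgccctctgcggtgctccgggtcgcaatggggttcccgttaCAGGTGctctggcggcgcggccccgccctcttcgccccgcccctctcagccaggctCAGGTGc
Pard6b, chr2:168080754-168081003, strand plus: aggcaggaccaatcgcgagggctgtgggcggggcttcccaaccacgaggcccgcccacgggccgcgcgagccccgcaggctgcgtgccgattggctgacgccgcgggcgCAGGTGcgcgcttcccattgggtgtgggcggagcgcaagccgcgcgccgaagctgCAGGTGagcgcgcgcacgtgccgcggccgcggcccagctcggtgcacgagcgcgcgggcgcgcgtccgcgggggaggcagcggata
Epcam, chr17:87635729-87635978, strand plus: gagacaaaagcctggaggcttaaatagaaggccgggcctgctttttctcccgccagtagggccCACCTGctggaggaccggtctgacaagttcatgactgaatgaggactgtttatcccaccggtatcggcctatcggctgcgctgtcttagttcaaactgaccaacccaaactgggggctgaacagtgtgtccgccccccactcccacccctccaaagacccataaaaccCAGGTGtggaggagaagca
Tjp1, chr7:65371245-65371494, strand minus: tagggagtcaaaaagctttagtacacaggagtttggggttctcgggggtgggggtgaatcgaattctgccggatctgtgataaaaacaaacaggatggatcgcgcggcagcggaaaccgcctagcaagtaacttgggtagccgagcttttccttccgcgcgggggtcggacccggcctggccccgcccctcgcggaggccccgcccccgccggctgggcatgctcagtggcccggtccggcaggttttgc

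The matches lay at different distances from the start. In Cldn4 the first base of the only match was 14 bases before the start, in Cldn6 it was 93 bases before, and in Crb3 the 3 matches began 118, 63 and 7 bases before the start shown. Cldn1, Cldn3, Cldn5, Cldn12, Cgn, Dsp, Jup, Marveld2 and Tjp1 had none in this window, so that genes with and without the motif were found both among those called higher in 2iJ+B−A and among those not called.

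**Figure D5:**
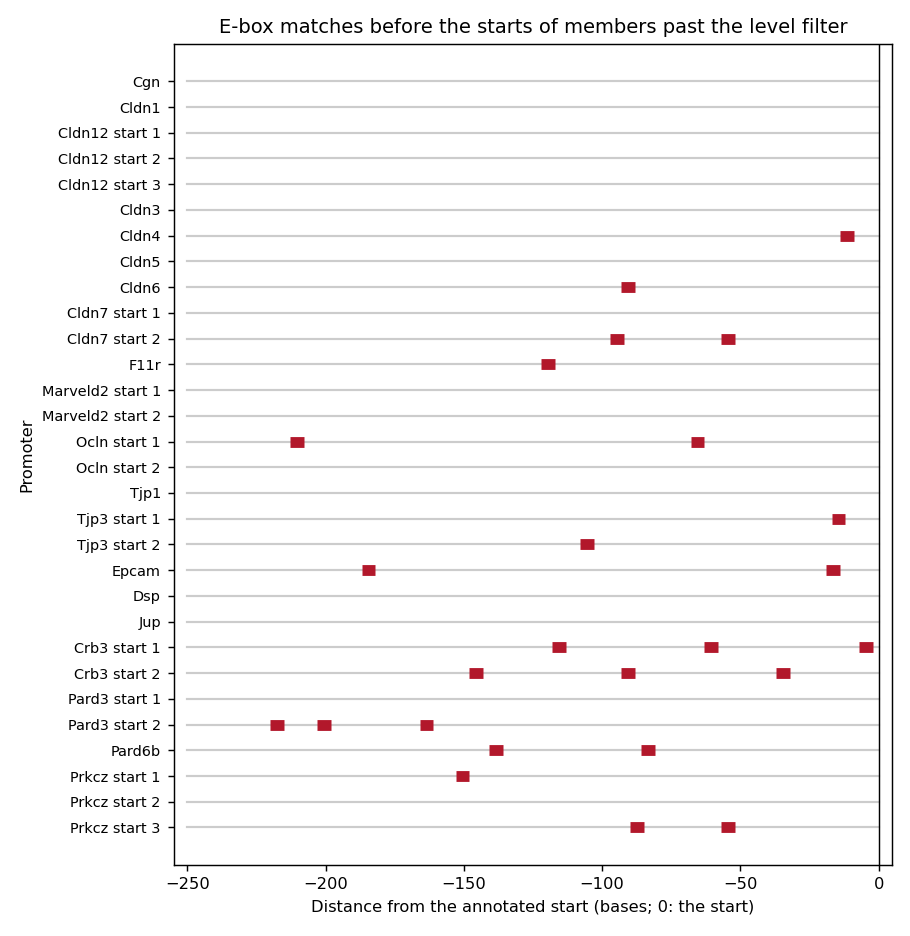
Position of E-box matches (red bars, either strand) in the 250 bases before each of the 30 annotated starts of the 20 genes with a promoter window, as distance from the start in bases. Matches lie in 14 of the 30 windows, with up to 3 in a window. The windows of both Crb3 starts overlap and show the same 3 matches.

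Other junction genes were taken from a wider list. Of 47 further genes past the filter in this list of tight, adherens and gap junction, desmosome and polarity genes, 8 were called higher and 1 lower in 2iJ+B−A against 2iJ, with a median log2 ratio of 0.19, beside 5.81% and 3.17% of all genes. In TSC against 2iJ, 18 were called higher and 7 lower, with a median of 0.35, beside 19.4% and 17.6% of all genes. The classes differed. Medians in 2iJ+B−A and TSC were 1.89 and 1.79 for the 5 gap junction genes and 0.20 and 0.35 for the 15 tight junction genes. They were 0.71 and 2.29 for the 4 desmosomal genes past the filter, of 8 listed. For the 11 adherens junction genes they were 0.08 and -0.10, and for the 12 polarity genes 0.04 and 0.18. Of the 4 desmosomal genes, 3 were called higher in TSC, among them Ppl (periplakin), at 4.75, 4.31, 10.9 and 30.0 CPM. The 8 genes called higher in 2iJ+B−A were 3 gap junction, 3 adherens junction, 1 desmosomal and 1 polarity gene. Of the 15 tight junction genes, 0 were called there, and 6 were called higher and 2 lower in TSC. Jam2, a relative of F11r, was at 222, 229, 169.7 and 0.228 CPM in 2i−L, 2iJ, 2iJ+B−A and TSC, and so was nearly absent from TSC, where F11r had its highest level.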

How the data were processed

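RNA-seq libraries of 4 samples, 1 per condition, were analysed. The authors deposited counts of read pairs per gene for each sample, as whole numbers without normalization. The submitters' processing notes name CASAVA 1.8.2, cutadapt, STAR 2.4.2a and the NCBIM37 genome, and trimming was done with TrimGalore according to the methods of the study. The annotation release is not given in the sources used here, and symbols and lengths were taken from GENCODE for NCBIM37. Read pairs that map to several places, 6.72% to 7.01% per sample, are not in the deposited counts, which lowers genes with close copies. The library kit keeps strand, so the reverse-strand count was used (29.1 to 32.1 times the other strand).

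Counts were scaled with TMM factors (edgeR 4.0.16, R 4.3.3) and given as CPM. The filter kept the 14263 genes that reached 1 CPM in any library. A pseudocount of 0.5 CPM was added before log2 ratios, which understates the difference of low genes. With 1 library per condition no model was fitted. Intervals cover counting error only. Samples were grouped by treatment and cell line labels.

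The genes and lists were chosen with earlier results of these data known. Every junction gene of the rule may be named, and of other lists genes past a log2 ratio of 1 with 10 CPM or more. Tcfap2a, Tcfap2c and Tcfcp2l1 are the names of Tfap2a, Tfap2c and Tfcp2l1 in this annotation. Transcripts were aligned to NCBIM37 with minimap2 2.31 to find matches elsewhere. The best match of a transcript was the one with the largest product of length and identity. Alternatives were DESeq2 1.42.0 size factors, total counts, other filters, pseudocounts and thresholds, the unstranded count and another reference sample. Ratios, intervals and plots were made in Python 3.11.15 (pandas 2.3.3, numpy 2.4.6, matplotlib 3.10.9, scipy 1.17.1), and the code was tested on simulated data. The promoter motifs and the 250-base window were chosen after the data were seen.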

Additional observations from a re-analysis of the deposited data

How the results depend on the processing

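No paired analysis was possible because each condition had 1 library. Of 660 log2 ratios of single genes under alternatives, 608 stayed within their counting interval, 52 moved beyond it and 17 crossed the threshold. No ratio past the threshold in the main setting changed sign. Sign changes of smaller ratios were not counted. For 2iJ+B−A against 2iJ, the 8 genes called higher became 1 at a log2 threshold of 1.5 and 14 at a 1.5-fold threshold, and the gene called lower became 3 at the 1.5-fold threshold and 0 with 1 CPM required in both samples or with 2i−L as the reference. For 2iJ against 2i−L, the gene called higher became 3 with a pseudocount of 0.1 CPM or at the 1.5-fold threshold and 0 with a pseudocount of 1 CPM or a log2 threshold of 1.5, and the count called lower became 4 at the 1.5-fold threshold. With 1 CPM required in both samples, the genes called lower in TSC became 1 against 2iJ and 1 against 2iJ+B−A. Each change comes from the threshold, filter, pseudocount or reference itself. The other 72 counts, among them those without Cldn25, Cldn26 and Cldn27, an alternative chosen after seeing the data, stayed within 1.5 times the main count. Depth limits the genes with few counts in 1 of the compared libraries, which are Cldn1, Cldn5, Cldn8, Cldn9, Cldn23 and Cldn26.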

Other observations

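Gap junction genes, which form channels between cells rather than seals, diverged between 2iJ+B−A and TSC. Gja1, the most widely expressed connexin, was at 30.0, 50.8, 190.1 and 2.85 CPM in 2i−L, 2iJ, 2iJ+B−A and TSC, so that it was highest in 2iJ+B−A and lowest in TSC. Gjb5, a connexin of the trophoblast lineage, was at 7.22, 2.65, 13.7 and 132 CPM. Gjb2 was at 2.23, 3.67, 21.0 and 13.9 CPM, and Gjc1 was at 93.8, 94.2, 41.7 and 1.05 CPM. Of the 5 genes of this list, 3 were called higher and 1 lower in 2iJ+B−A against 2iJ, beside 5.81% and 3.17% of all genes. In TSC against 2iJ, 3 were called higher and 2 lower, beside 19.4% and 17.6% of all genes.

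Among 11 genes that promote an epithelial state, 4 were called higher and 0 lower in 2iJ+B−A against 2iJ, beside 5.81% and 3.17% of all genes. In TSC against 2iJ, 7 were called higher and 2 lower, beside 19.4% and 17.6% of all genes. Esrp1 and Esrp2, the epithelial splicing regulators, were at 7.94, 16.4, 21.4 and 130.5 CPM and at 17.6, 19.4, 45.1 and 123 CPM in 2i−L, 2iJ, 2iJ+B−A and TSC. Grhl1 was at 5.62, 5.94, 15.7 and 18.8 CPM, and Tcfap2a was at 11.7, 14.9, 41.0 and 3.33 CPM. Elf3 was at 246, 171, 167 and 57.1 CPM and, like Tcfap2a, was called lower in TSC against 2iJ. Klf5 (-0.38), Grhl3 (-0.33), Tcfap2c (-0.32) and Elf3 (-0.03) had log2 ratios below 0 in 2iJ+B−A against 2iJ. They were named after their values were seen, and the other genes of this list lay above 0 there, with a median over the list of 0.61. Of 6 mesenchymal genes past the filter, 1 was called higher and 0 lower in 2iJ+B−A, and 1 higher and 4 lower in TSC. The shares over all genes are those just given for each comparison. Fn1 (fibronectin) was at 2212, 2273, 1320 and 67.9 CPM, and Vim (vimentin) was at 84.0, 64.6, 38.5 and 13.0 CPM. Neither was called in 2iJ+B−A against 2iJ. The other 4 genes of this list, all under 10 CPM and named after their values were seen, had log2 ratios above 0 there, Snai2 at 1.17, Snai1 at 0.77, Twist1 at 0.18 and Zeb2 at 0.07, and the median of the 6 was 0.12. Twist1 was the gene called higher in TSC, at 2.10.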
